A study of Mus musculus with 8 samples.

Results

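The enzymes that write and erase cytosine methylation were examined in whole testes of 12-day-old wild type and Morc2b-/- mice. The group was defined by gene name, with earlier results of these data known, and holds 8 genes of the 24651 for which counts could be summed. They are Dnmt1, Dnmt3a, Dnmt3b, Dnmt3l, Uhrf1, Tet1, Tet2 and Tet3. Polyadenylated RNA had been sequenced from 8 pairs of testes, 4 wild type and 4 Morc2b-/-, each library from 1 pair. The controls carry the label of wild type, although the design text of the series speaks of Morc2b+/- controls, and they are called wild type here. In the Morc2b-/- mice the coding exon of Morc2b had been replaced by a PGKNeo cassette. All mutants descend from 1 targeted ES cell clone, through intercrosses on a mixed strain background. Each library had between 27144796 and 36941755 reads assigned to transcripts.

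In mammals the 5-methylcytosine of CpG dinucleotides is kept through DNA replication by DNMT1, which UHRF1 brings to hemimethylated sites. DNMT3A and DNMT3B place new methyl groups, and DNMT3L, which has no catalytic activity of its own, stimulates both. TET1, TET2 and TET3 oxidise 5-methylcytosine to 5-hydroxymethylcytosine and beyond, which opens a path back to the unmodified base. In the male germ line, methylation is laid down in prospermatogonia before birth, and spermatogonia after birth keep it as they divide and enter meiosis. The testis of 12-day-old mice holds spermatogonia and early meiotic spermatocytes together with Sertoli, Leydig and peritubular cells. In such bulk RNA, fewer cells of a type and less RNA per cell cannot be told apart.

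The labels and the tissue were checked first. Morc2b had 428, 443, 24 and 1272 counts in the libraries labelled wild type 1 to 4, and 10, 10, 115 and 2 counts in the libraries labelled Morc2b-/- 1 to 4. The libraries numbered 3 thus stand the wrong way round for this gene. The library labelled wild type 3 was at 0.857 counts per 1000000 assigned reads after TMM normalization (CPM). The library labelled Morc2b-/- 3 was at 3.29 CPM, and the results for the methylation enzymes were also computed without both of these libraries. Zbtb16, a marker of undifferentiated spermatogonia, ranged from 106 to 185 CPM over all libraries, and Sycp3, a component of the synaptonemal complex, from 267 to 667 CPM. Summed markers of spermatids were at 163 CPM in wild type 1 and 317 CPM in Morc2b-/- 3, against at most 37.4 CPM in the other libraries. Summed epididymal markers were at 249.6 CPM in wild type 1 and 13.5 CPM in Morc2b-/- 2, and under 1 CPM elsewhere.

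Of the 8 methylation enzymes, only Tet3 and Dnmt1 had enough counts to be tested between the genotypes, and neither passed the test. The fit did not call Morc2b itself either, at a log2 fold change of -4.09 (edgeR quasi-likelihood test, unadjusted p = 0.00793, adjusted p 0.9998). A gene that did not pass is therefore not shown to be unchanged. Tet3 held 84.99% of the 2412 counts that all 8 genes received over 8 libraries. Dnmt3b, Dnmt3l and Uhrf1 had no count in any library, and Dnmt3a had 2 in all. The files list reads per transcript, and the 8 genes were listed with 32 transcripts. Of these, 26 were at 0 in all libraries, 4 had 10 or more counts and the other 2 had fewer.

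**Figure D1:**
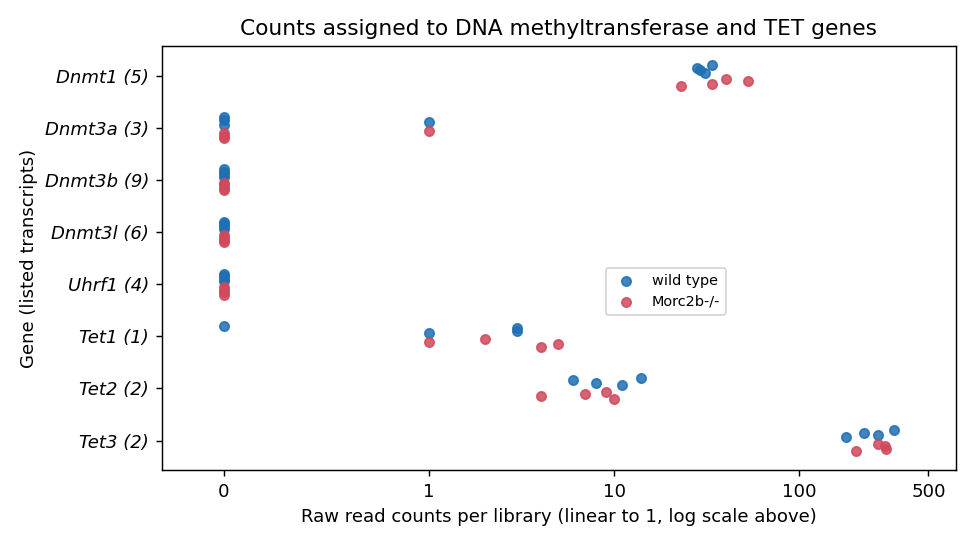
Raw read counts of each methylation enzyme in each of the 4 wild type (blue) and 4 Morc2b-/- (red) libraries, with the number of listed transcripts in brackets and the count axis linear to 1 and logarithmic above. Tet3 lies between 180 and 324 counts and Dnmt1 between 23 and 53, while Dnmt3b, Dnmt3l and Uhrf1 lie at 0 in every library.

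The de novo methyltransferases and their cofactor were at or next to 0. Dnmt3a was listed with 3 transcripts and had 1 count in wild type 3 and 1 count in Morc2b-/- 1, both on NM_153743, and 0 in the other 6 libraries. Dnmt3b was listed with 9 transcripts and Dnmt3l with 6, all at 0. Uhrf1, the partner of DNMT1 in maintenance methylation, was listed with 4 transcripts, also all at 0. A count of 0 in 8 libraries allows up to 0.0117 CPM before normalization, taken as 3 counts of the total. This limit covers counting error only and holds only for reads that could be given to 1 transcript.

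These zeros were not read as absence of the RNAs. The files hold a row of reads that matched more than 1 listed feature and were assigned to none, and this row took 26.8 to 28.8% of all reads assigned, ambiguous or without a feature in each library. Genes listed with several transcripts had fewer counts than genes listed with 1. Of the 18581 genes with 1 listed transcript, 27.1% had under 10 counts over all libraries and the median was 489 counts. Of the 6070 genes with at least 2 listed transcripts, 40.9% had under 10 counts and the median was 26 counts. The medians were 32 counts at 2 transcripts, 18.5 at 3 and 21 at 4 to 5, so the fall was not even from class to class. Among the 267 genes with 6 or more, to which Dnmt3b and Dnmt3l belong, the share under 10 counts was 49.8% and the median 10 counts. How many of the ambiguous reads came from the methylation enzymes was not tested.

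**Figure D2:**
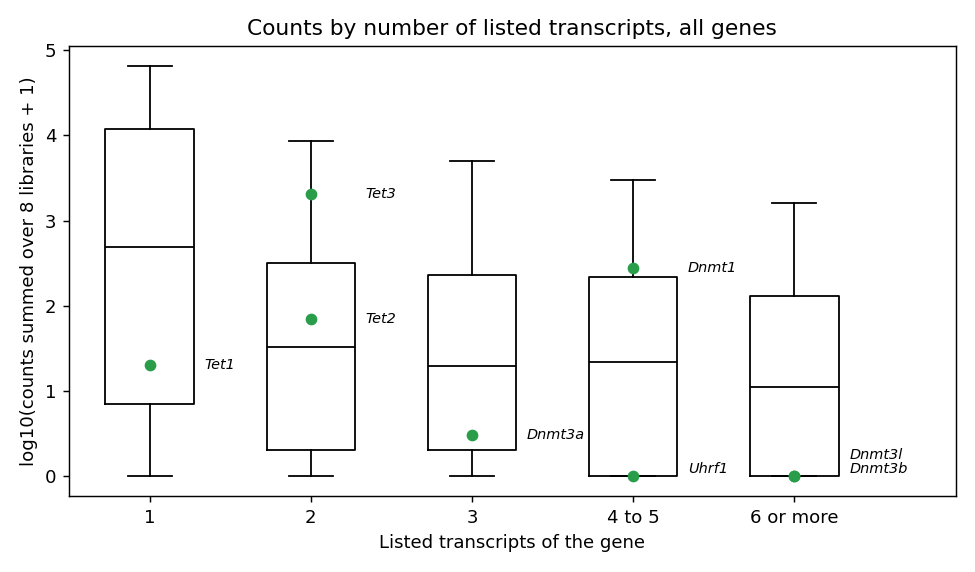
Counts summed over 8 libraries, as log10 of the sum plus 1, for all genes by the number of listed transcripts (boxes, quartiles with the median; whiskers, 5th to 95th percentile), with the 8 methylation enzymes as green points. The median is 489 counts at 1 transcript, 32 at 2, 18.5 at 3, 21 at 4 to 5 and 10 at 6 or more, and Dnmt3b, Dnmt3l and Uhrf1 lie at the bottom of their classes.

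The genes lie apart from each other in the genome. On NCBI37/mm9, with GENCODE models, the minus strand carries Dnmt1 (chromosome 9, 20711650 to 20757317), Tet1 (chromosome 10, 62267318 to 62361866), Tet2 (chromosome 3, 133126643 to 133207354) and Tet3 (chromosome 6, 83312367 to 83391672). Dnmt3a (chromosome 12, 3806007 to 3914443), Dnmt3b (chromosome 2, 153475186 to 153513466), Dnmt3l (chromosome 10, 77504692 to 77526367) and Uhrf1 (chromosome 17, 56442744 to 56462909) lie on the plus strand. Exons of Dnmt3a share 133 bases with Gm10485 and exons of Dnmt3l share 67 bases with Aire, each on the opposite strand, whereas the exons of the other 6 genes overlap no other gene.

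Tet3, the TET dioxygenase with by far the most counts here, was at nearly the same mean level in both genotypes. It had 324, 225, 268 and 180 counts in wild type 1 to 4 and 268, 290, 293 and 202 counts in Morc2b-/- 1 to 4. Every count was on NM_001347313, while the other listed transcript, NM_183138, was at 0. Reads that matched more than 1 listed feature were assigned to none, so the counts of Tet3 hold only reads given to 1 transcript. They do not show which transcript was used or the level of the whole gene. After TMM normalization the levels were 8.83, 8.25, 9.57 and 5.66 CPM in wild type and 8.66, 7.84, 8.39 and 6.95 CPM in Morc2b-/- testes. The groups overlapped, and the lowest library of each genotype was the one numbered 4. Wild type libraries averaged 8.08 ± 1.70 CPM and mutant libraries 7.96 ± 0.758 CPM (SD, n = 4 each). On the log2 scale this was a change of -0.02 with a standard error of 0.17 (edgeR quasi-likelihood test, unadjusted p = 0.905, Benjamini-Hochberg adjusted p over all genes 0.9998). Its 95% interval ran from -0.40 to 0.36, a fold change between 0.759 and 1.28.

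Dnmt1, the maintenance methyltransferase, was counted at a lower depth, and its genotype difference was within the spread between libraries. It had 34, 28, 29 and 31 counts in wild type and 40, 53, 34 and 23 counts in Morc2b-/- testes. All but 1 of these counts were on NM_001199433 out of 5 listed transcripts, and the other was on NM_001314011. As for Tet3, these hold only reads given to 1 transcript. The levels were 0.927, 1.03, 1.04 and 0.974 CPM in wild type and 1.29, 1.43, 0.974 and 0.791 CPM in Morc2b-/- testes. The wild type libraries lay close together, and the mutant libraries fell on both sides of them. Counting error is wider than this wild type spread, as the exact Poisson 95% interval of wild type 1 alone ran from 0.642 to 1.29 CPM. Wild type libraries averaged 0.991 ± 0.0507 CPM and mutant libraries 1.12 ± 0.293 CPM (SD, n = 4 each). On the log2 scale the difference was 0.18 with a standard error of 0.22 and a 95% interval from -0.32 to 0.69 (edgeR quasi-likelihood test, unadjusted p = 0.430, adjusted p 0.9998), a fold change between 0.802 and 1.61. With 2 of the 8 genes tested, 0 were called at an adjusted p under 0.05, against 0% of the 13507 genes tested in all. Neither gene had an unadjusted p under 0.05, against 1.84% of all genes tested, and neither had genotypes that did not overlap, against 1.29%. Without both libraries numbered 3, the log2 fold change was 0.27 for Dnmt1 and 0.04 for Tet3, and without wild type 1 and Morc2b-/- 3 it was 0.22 and -0.01.

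**Figure D3:**
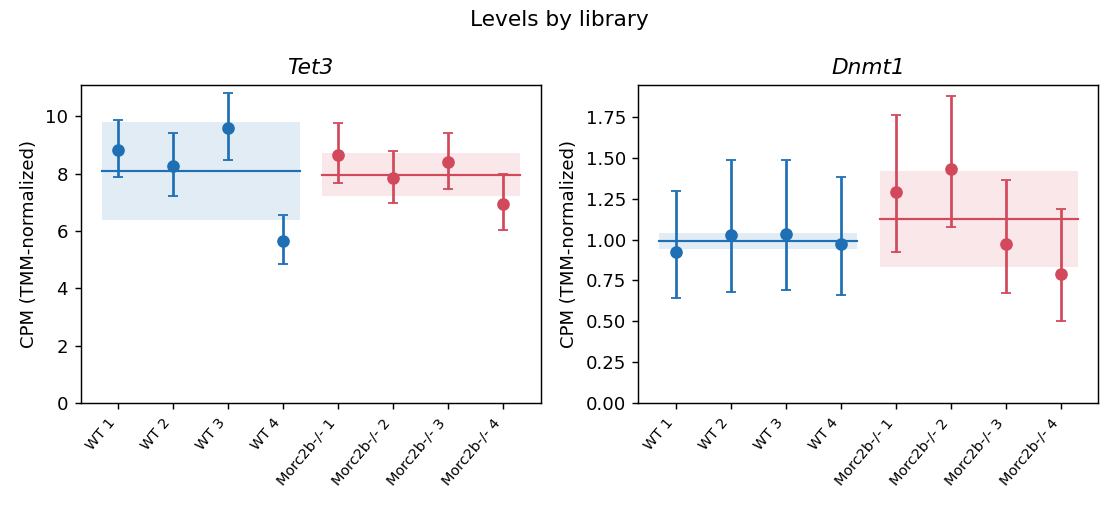
TMM-normalized CPM of Tet3 (left) and Dnmt1 (right) in each library, with exact Poisson 95% intervals (bars, counting error only), the genotype mean (line) and 1 SD to each side (shading). Wild type and Morc2b-/- libraries overlap for both genes, and the libraries numbered 4 are the lowest of their genotype for Tet3, at 5.66 and 6.95 CPM.

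The starts of both genes are shown because these are the 2 enzymes with testable counts and because Dnmt1 has several starts with unlike CpG content. The windows hold 250 bases before and 50 bases after an annotated start, from RefSeq on GRCm38.p6, a later build than that of the counts, and are written 5′ to 3′ on the strand of the gene with each CG in capitals. The Tet3 window is chr6:83441629-83441928, minus strand. The Dnmt1 windows are chr9:20959839-20960138, the start with the fewest CG, and chr9:20952574-20952873, the start with the most, both on the minus strand.
Tet3: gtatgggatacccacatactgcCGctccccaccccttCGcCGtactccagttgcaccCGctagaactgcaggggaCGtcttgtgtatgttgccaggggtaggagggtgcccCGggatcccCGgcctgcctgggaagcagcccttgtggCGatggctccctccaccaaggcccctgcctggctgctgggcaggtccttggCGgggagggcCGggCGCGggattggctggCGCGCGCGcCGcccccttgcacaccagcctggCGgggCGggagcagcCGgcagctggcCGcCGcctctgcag
Dnmt1 start with the fewest CG: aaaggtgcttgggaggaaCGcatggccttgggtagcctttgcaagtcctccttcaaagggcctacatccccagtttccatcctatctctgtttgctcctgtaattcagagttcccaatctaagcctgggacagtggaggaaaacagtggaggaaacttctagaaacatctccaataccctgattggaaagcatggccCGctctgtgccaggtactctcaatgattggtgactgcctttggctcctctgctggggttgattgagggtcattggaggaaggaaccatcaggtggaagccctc
Dnmt1 start with the most CG: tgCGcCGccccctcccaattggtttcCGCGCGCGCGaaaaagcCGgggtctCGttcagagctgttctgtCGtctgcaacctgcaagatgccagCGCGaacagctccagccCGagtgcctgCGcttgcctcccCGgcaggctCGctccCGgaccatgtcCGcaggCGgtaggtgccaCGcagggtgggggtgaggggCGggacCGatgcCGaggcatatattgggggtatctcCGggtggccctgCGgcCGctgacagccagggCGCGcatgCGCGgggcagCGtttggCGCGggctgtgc
The Tet3 window holds 22 CG, and 23.1% of 32851 promoter windows of the same length hold as many or more. The Dnmt1 windows hold 2 and 33 CG, which 85.9% and 8.56% of all windows reach, and its remaining start holds 12. The median over all windows was 7 CG. Among the other enzymes the count ran from 3 CG at the poorest of 3 starts of Dnmt3l to 57 at the single start of Tet2. Dnmt3b had 30 CG at its single start and Tet1 had 17, Uhrf1 had 12 and 33, and Dnmt3a had 46, 47 and 18. Which start the counted reads of Dnmt1 came from was not tested, and no methylation was measured in these libraries.

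Tet1 and Tet2 had too few counts for the test. Tet1 had 0, 3, 3 and 1 counts in wild type and 2, 1, 5 and 4 counts in Morc2b-/- testes, and the ranges overlapped in part. Summed by genotype, this was 7 counts, or 0.0566 CPM before normalization (exact Poisson 95% interval 0.0228 to 0.117), against 12 counts, or 0.0908 CPM before normalization (0.0469 to 0.159). Tet1 was listed with 1 matched transcript, NM_001253857. For 297 of the 35819 listed transcripts no gene name was found, and whether any of them belongs to Tet1 was not tested. Tet2 had 14, 6, 8 and 11 counts in wild type and 9, 7, 4 and 10 counts in Morc2b-/- testes. All were on NM_001346736, with NM_001040400 at 0. As for Tet3, these hold only reads given to 1 transcript. The sums were 39 counts, or 0.316 CPM before normalization (0.224 to 0.431), and 30 counts, or 0.227 CPM before normalization (0.153 to 0.324), and the intervals overlapped for both genes. Without a filter on low counts, with 20113 genes tested, the log2 fold change was 0.62 with a standard error of 0.84 for Tet1 and -0.41 with a standard error of 0.40 for Tet2 (edgeR quasi-likelihood test, adjusted p 0.9989 for both). Levels were not compared between the enzymes, because the length of each gene over which a read could be assigned is not known. No enzyme had 100 counts on each of 2 transcripts, so the shares of transcripts within a gene were not compared between genotypes.

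Tet3 varied between libraries more than counting error alone gives. Over 8 libraries, the chi-square of the counts against equal levels, divided by 7 degrees of freedom, was 6.49 for Tet3, 1.39 for Dnmt1, 1.33 for Tet1 and 1.02 for Tet2. On the log2 scale the SD of the CPM over all libraries was 0.24 for Tet3 and 0.26 for Dnmt1. The median SD was 0.22 over genes within 1.5-fold of the level of Tet3 and 0.36 over genes within 1.5-fold of the level of Dnmt1. The spread of Tet3 was thus near that of other genes of its level. Over the 8 libraries its highest level, in wild type 3, was 1.69-fold its lowest, in wild type 4, and for Dnmt1 the range was 1.81-fold, from Morc2b-/- 4 to Morc2b-/- 2.

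The lowest spermatogonial marker sums fell in the same libraries as the lowest Tet3 levels. The 12 markers, of which 10 had at least 10 counts, summed to 999.5, 908.9, 1096 and 850.1 CPM in wild type and to 1084, 964.3, 1036 and 908.6 CPM in Morc2b-/- testes. Wild type 3 was the highest and wild type 4 the lowest of all libraries both for Tet3 and for this sum, and Morc2b-/- 4 was the lowest mutant for both. Summed markers of leptotene and zygotene spermatocytes, all 12 with at least 10 counts, were at 2931, 4198, 3148 and 3900 CPM in wild type and at 2780, 3066, 2482 and 4263 CPM in Morc2b-/- testes, with the highest mutant value in the library numbered 4. Summed pachytene markers ranged from 158.7 to 494.0 CPM in wild type and from 155.2 to 298.6 CPM in Morc2b-/- testes, and Sertoli markers from 7557 to 8623 CPM and from 8210 to 9158 CPM. Leydig markers ranged from 195.9 to 630.9 CPM and from 196.0 to 692.8 CPM, and peritubular myoid markers were at 1801 CPM in wild type 1 and at most 1023 CPM elsewhere. Macrophage markers were between 241 and 339 CPM in all libraries. The part of cell makeup in the levels of Tet3 was not tested.

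**Figure D4:**
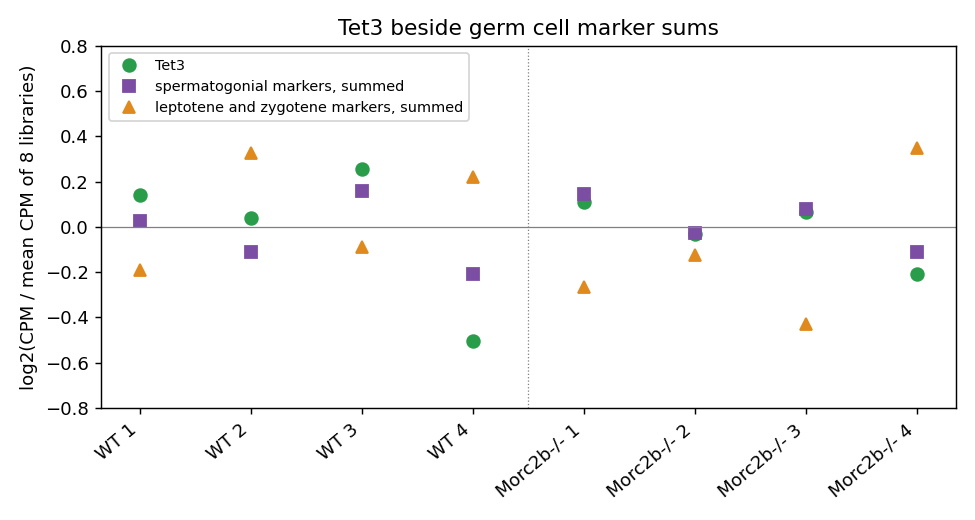
Tet3 (green circles) and the sums of spermatogonial markers (purple squares) and of leptotene and zygotene markers (orange triangles) in each library, as log2 of CPM over the mean CPM of 8 libraries. Tet3 and the spermatogonial sum are lowest in wild type 4. The leptotene and zygotene sum is above its mean in both libraries numbered 4 and in wild type 2.

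The genes whose pattern over the 8 libraries was most like that of an enzyme were found by the mean absolute difference of centred log2 CPM over 13506 other genes. For Tet3 they included Bmp7, a bone morphogenetic protein, at 0.039, and Psmb10, a proteasome subunit, at 0.044, where Tet3 itself deviated by 0.17 on average from its own mean. Bmp7 was at 43.4, 39.0, 48.4 and 28.4 CPM in wild type and at 40.8, 39.3, 44.2 and 34.3 CPM in Morc2b-/- testes. It was lowest in both libraries numbered 4, which follows from its choice by likeness to Tet3. For Dnmt1 they were Ubtf, a factor of RNA polymerase I transcription, at 0.086, Serpinb6b, a serpin, at 0.10 and Nudt12, a nudix hydrolase, at 0.10, against a mean deviation of 0.18 of Dnmt1 itself. These likenesses describe 8 libraries and were picked as the smallest differences among all genes.

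Many genes that work with these enzymes were better covered, and none of them passed the test between the genotypes either. The 6 lists covered methyl-CpG readers and relatives, excision and repair factors for oxidised cytosine, TET cofactors, the S-adenosylmethionine cycle, methyltransferase partners and imprinted genes. They held 78 genes, of which 59 were tested. Of these 59, none was called at an adjusted p under 0.05, none had an unadjusted p under 0.05 and none had genotypes that did not overlap, against 0%, 1.84% and 1.29% of all genes tested by edgeR. Their log2 fold changes had a median of -0.02, against 0.00 over all genes. Of them, 24 were above 0 and 35 below, against 6860 above and 6647 below over all genes tested. The 47 genes with 1 listed transcript all had at least 10 counts, with a median of 19985, whereas 14 of the 31 with more had fewer than 10 counts and the median was 20.

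Among the methyl-CpG readers and relatives, 9 of 12 genes were tested. Of these, 6 had log2 fold changes above 0 and 3 below, and the median was 0.02. Uhrf2, the paralogue of Uhrf1, was well covered, at 102, 108, 106 and 114 CPM in wild type and at 104, 113, 104 and 105 CPM in Morc2b-/- testes, with a log2 fold change of -0.01 ± 0.06 (SE). Mbd1, a methyl-CpG-binding protein, was at -0.02 ± 0.06 (SE) and Zbtb4, a zinc finger protein that binds methylated CpG, at 0.05 ± 0.06 (SE). The related Zbtb38 averaged 50.9 ± 3.97 CPM in wild type and 54.6 ± 4.87 CPM in Morc2b-/- testes (SD, n = 4 each). Mbd6 had no counts, Mbd3 had 5 and Zbtb33 had 12, each with 2 listed transcripts.

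The excision and repair genes act after TET oxidation, where a glycosylase removes the modified base and the gap is filled. Of 15 genes 13 were tested, 4 above 0 and 9 below, with a median of -0.01. Tdg, the glycosylase of formylcytosine and carboxylcytosine, and Lig3, a DNA ligase, had no counts, with 2 and 4 listed transcripts. Parp1, which marks strand breaks with poly(ADP-ribose), was at 741 ± 60.5 CPM in wild type and 741 ± 63.0 CPM in Morc2b-/- testes (SD, n = 4 each). Apex1, the abasic site endonuclease, averaged 156 and 160 CPM, and Xrcc1, the scaffold of single-strand break repair, 104 and 103 CPM. Neil3, a DNA glycosylase, had the lowest p of all 59 genes, with 13.03, 10.6, 11.04 and 10.8 CPM in wild type and 10.8, 9.95, 9.20 and 8.77 CPM in the mutants. This was a log2 fold change of -0.23 ± 0.11 (SE) (edgeR quasi-likelihood test, unadjusted p = 0.0670, adjusted p 0.9998), and the groups overlapped by 1 library on each side. Gadd45b, a stress-induced protein linked to demethylation, was at 22.8 ± 0.886 and 25.3 ± 1.84 CPM (SD, n = 4 each), a log2 fold change of 0.15 ± 0.08 (SE) that did not pass the test.

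For the cofactors and recruiters of TET proteins, 6 of 8 genes were tested, 3 to each side of 0, and the median was 0.00. Cxxc5, a CXXC zinc finger protein, was at 95.9, 78.3, 108 and 59.8 CPM in wild type and at 104, 86.6, 107 and 65.1 CPM in Morc2b-/- testes, and was also lowest in both libraries numbered 4. Cxxc4, its paralogue, had 9.72 ± 1.63 and 10.04 ± 2.56 CPM (SD, n = 4 each), and was likewise lowest in Morc2b-/- 4. Idh2, which makes 2-oxoglutarate, the cosubstrate of TET enzymes, in mitochondria, averaged 77.9 and 75.6 CPM, with its highest value of 105 CPM in wild type 1. Its cytosolic relative Idh1 was at 0.907 and 1.02 CPM and Ogt, a glycosyltransferase that binds TET proteins, at 0.787 and 0.674 CPM, both with 2 listed transcripts. Nanog had no counts and Prdm14 had 80 counts in all, too few for the test.

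The S-adenosylmethionine cycle supplies the methyl donor of the DNMTs. Of 14 genes 12 were tested, 4 above 0 and 8 below, with a median log2 fold change of -0.07. Mat2a, the methionine adenosyltransferase of most tissues, was the best covered gene of the list, at 1018 ± 97.0 CPM in wild type and 1022 ± 114 CPM in Morc2b-/- testes (SD, n = 4 each). Ahcyl1, a relative of adenosylhomocysteine hydrolase, was at 418 ± 36.7 and 401 ± 31.4 CPM (SD, n = 4 each), and Mtr, methionine synthase, at 353 ± 30.3 and 349 ± 33.3 CPM (SD, n = 4 each). Mat1a, the form typical of liver, was at 3.14 ± 1.30 and 2.47 ± 0.814 CPM (SD, n = 4 each), with a log2 fold change of -0.35 ± 0.36 (SE). Shmt2, the mitochondrial serine hydroxymethyltransferase, had 4 counts in all.

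Partners of the methyltransferases bring them to chromatin or regulate their stability. Of 13 genes 11 were tested, 4 above 0 and 7 below, with a median of -0.04. Trim28, the corepressor of KRAB zinc finger proteins, had 762 ± 36.8 CPM in wild type and 740 ± 26.4 CPM in Morc2b-/- testes (SD, n = 4 each), a log2 fold change of -0.04 with a 95% interval from -0.16 to 0.08. Nsd1, a histone H3 lysine methyltransferase, was at 762 ± 36.7 and 750.1 ± 44.1 CPM (SD, n = 4 each). Usp7, a deubiquitinase that binds DNMT1 and UHRF1, was at 697 ± 18.5 and 662 ± 33.3 CPM (SD, n = 4 each), with a log2 fold change of -0.07 ± 0.05 (SE) and the lowest unadjusted p of the list, 0.185 by edgeR. Zfp57, a zinc finger protein that keeps methylation at imprinted loci, was at 3.22, 3.78, 3.82 and 3.74 CPM in wild type and at 3.72, 3.35, 2.89 and 2.79 CPM in the mutants. This was a log2 fold change of -0.19 ± 0.15 (SE), and the groups overlapped. Ehmt2 and Setdb1, 2 histone H3 lysine methyltransferases, had no counts, with 4 and 3 listed transcripts.

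Imprinted genes, whose parental expression rests on germ line methylation, were tested in 8 of 16 cases, 3 above 0 and 5 below, with a median of -0.10. Meg3, a maternally expressed noncoding RNA, was at 125, 103, 118 and 85.9 CPM in wild type and at 127, 76.5, 69.4 and 75.8 CPM in the mutants, so that 3 mutant libraries lay below all wild type libraries and 1 above them. Its log2 fold change was -0.31 ± 0.20 (SE) (edgeR quasi-likelihood test, unadjusted p = 0.154, adjusted p 0.9998). Kcnq1ot1, a paternally expressed antisense RNA, was at 64.0 ± 8.604 and 52.8 ± 12.1 CPM (SD, n = 4 each), with a log2 fold change of -0.28 ± 0.16 (SE). The strand setting of the counts is not given in the sources used here, so reads of Kcnq1ot1 and of its host gene Kcnq1 cannot be told apart. Igf2r was at 304 ± 23.6 and 305 ± 13.1 CPM (SD, n = 4 each), and Peg3 at 235 ± 31.5 and 216 ± 21.5 CPM (SD, n = 4 each). Zdbf2, a paternally expressed gene with 4 listed transcripts, had too few counts for the test and is named after its values were seen. It had 11, 10, 8 and 9 counts in wild type, at 0.309 ± 0.0394 CPM (SD, n = 4). In the mutants it had 5, 5, 3 and 7 counts, at 0.156 ± 0.0647 CPM (SD, n = 4), and the groups did not overlap. The share of genes without overlap, 1.29%, covers tested genes only. It was not computed for genes with so few counts. H19, Cdkn1c and Peg10 had no counts, and Snrpn, with 9 listed transcripts, had 8.

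**Figure D5:**
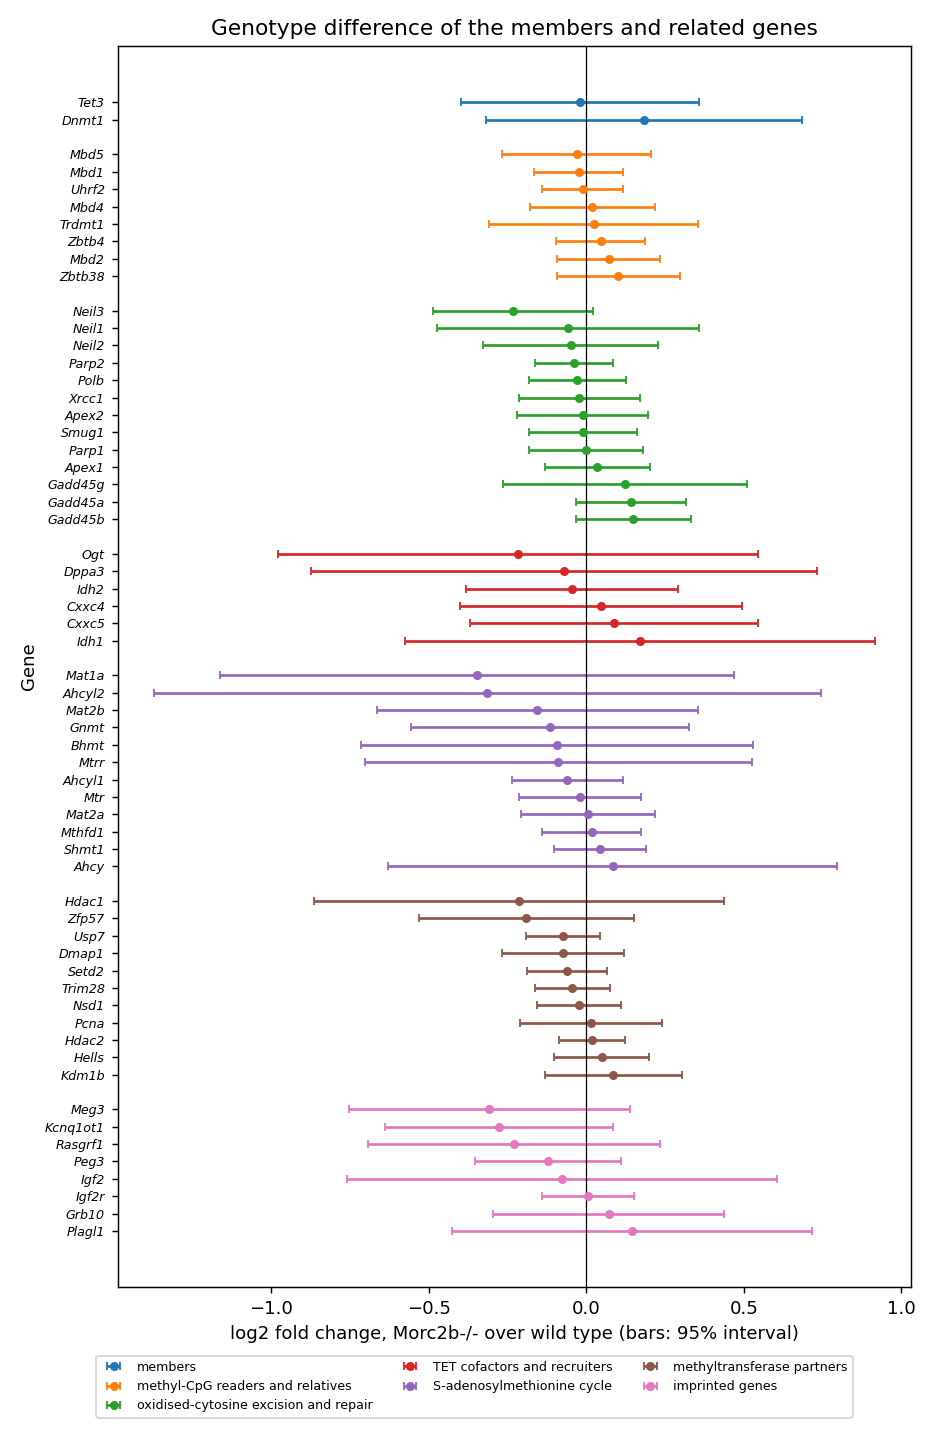
Log2 fold change of Morc2b-/- over wild type with its 95% interval (bars) for the 2 methylation enzymes tested and 58 tested genes of the 6 related lists, coloured by list. All intervals cross 0, and the points of the related genes run from -0.35 for Mat1a to 0.17 for Idh1.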

How the data were processed

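Testis RNA of 8 mice was sequenced as stranded, poly(A)-selected libraries on a NextSeq instrument. According to the methods of the study, the authors trimmed the reads and mapped them to NCBI37/mm9 with Tophat, and the submitters' processing notes name Cufflinks and Cuffdiff. The deposited files hold raw counts per RefSeq transcript for each library, with rows for ambiguous and unassigned reads that stayed out of library sizes. The counting program, its strand setting and its annotation are not given in the sources used here. No fold change or p-value of the authors was used.

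Counts of 35522 of the 35819 listed transcripts were summed to 24651 gene symbols, and the other 297 transcripts, with 0.484% of the counts, matched no symbol. Genes were filtered with filterByExpr by genotype (minimum 10 counts), normalized by TMM and tested with the quasi-likelihood test of edgeR 4.0.16 in R 4.3.3, all 8 libraries in 1 fit, with Benjamini-Hochberg adjustment over 13507 genes and a threshold of 0.05. Standard errors were the log2 fold change over the square root of F. CPM are TMM-normalized, and the rates given for counts summed by genotype or over all libraries are not. Exact Poisson intervals (95%) and the limit of 3 counts for a count of 0 cover counting error only. No libraries had near-identical counts (smallest chi-square per degree of freedom between libraries 5.67). The methods of the study name 8 separate pairs of testes, so the p-values measure the spread between mice.

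The 8 enzymes, the 6 related lists and the markers were chosen with earlier results of these data known. From each list, the 3 genes with the highest mean CPM and the 2 with the lowest unadjusted p were named, and genes without counts beside them were named after their values were seen. Some genes that these rules select are not reported here. Alternatives were RLE normalization, DESeq2 1.42.0, limma-voom (limma 3.58.1), other filters, a replicate block, transcripts as units and leaving out libraries.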

Additional observations from a re-analysis of the deposited data

Results flagged for a closer look

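Of 68 groups of 4 values examined for a library far from the rest, 6 stood out by Dixon's criterion, and chance flags about 1 in 20 such groups. Meg3 was at 127 CPM in Morc2b-/- 1 and between 69.4 and 76.5 CPM in the other 3 mutant libraries. Uhrf2 was at 113 CPM in Morc2b-/- 2, against 104 to 105 CPM in the other mutants. Zfp57 was at 3.22 CPM in wild type 1, against 3.74 to 3.82 CPM in the other wild types. Morc2b itself was at 3.29 CPM in the library labelled Morc2b-/- 3, against 0.0688 to 0.323 CPM in the other libraries labelled Morc2b-/-. Dnmt3a was at 0.0357 CPM in wild type 3 and at 0.0323 CPM in Morc2b-/- 1, with 0 in the other libraries, and each of these values is 1 count. Dnmt1, Tet1, Tet2 and Tet3 had no such library, and Dnmt3b, Dnmt3l and Uhrf1, at 0 throughout, could not be examined.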

How the results depend on the processing

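No methylation enzyme was called under any of 17 alternatives, although Dnmt3b, Dnmt3l and Uhrf1, at 0 throughout, could not be tested. Dnmt3a, Tet1 and Tet2 passed neither the main count filter nor that of 10 counts in every library. They were tested without a count filter, so the alternatives say less about them than about Dnmt1 and Tet3. No gene of the 6 lists was called under the alternatives with genes as units, and the lists were not counted with transcripts as units. Among all genes DESeq2 called 1 where edgeR called 0, while the number at an unadjusted p under 0.05 ran from 204 to 572. The log2 fold change of Dnmt1 stayed above 0, between 0.04 and 0.31 when single libraries were left out. That of Tet3 ran from -0.16, without wild type 4, to 0.069, and was above 0 with limma-voom (0.0058) and without both libraries numbered 3 (0.045). Of 446 values for 27 named genes of the lists and for Morc2b itself, 403 kept their direction and 43 changed sign. With limma-voom Parp1 came to 0.00068, and without a count filter to 0.00030. Without both libraries numbered 3, Parp1 came to 0.026, Cxxc4 to -0.060, Mtr to 0.014 and Nsd1 to 0.017. Without wild type 1 and Morc2b-/- 3, Idh2 came to 0.072, Cxxc4 to -0.00068 and Mat2a to -0.0050. With 10 counts required in every library, Mat2a came to -0.00027 and Igf2r to -0.0024. The cause was not tested. Leaving out single libraries gave ranges that crossed 0 for Uhrf2 (-0.042 to 0.017), Mbd1 (-0.051 to 0.016), Parp1 (-0.047 to 0.055), Apex1 (-0.012 to 0.082), Xrcc1 (-0.077 to 0.036), Cxxc5 (-0.053 to 0.22), Idh2 (-0.12 to 0.13), Cxxc4 (-0.097 to 0.18), Idh1 (-0.078 to 0.38), Mat2a (-0.049 to 0.055), Mtr (-0.072 to 0.044), Nsd1 (-0.056 to 0.012) and Igf2r (-0.037 to 0.058).

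The labels share replicate numbers, but same-numbered libraries did not deviate together in every pair (correlations -0.16, 0.24, -0.32 and 0.45), so the numbers were not taken to pair the mice. The negative values belong to the libraries numbered 1 and 3, which include those with high spermatid markers or reversed Morc2b counts. Whether the numbers pair the mice is thus not settled. With a replicate block Dnmt1 was at 0.15 and Tet3 at -0.00084 on the log2 scale and 0 genes were called. The standard errors were then 0.22 for Dnmt1 and 0.12 for Tet3, against 0.22 and 0.17 without the block. Shares of transcripts within an enzyme could not be fitted under any setting. The low counts of Dnmt1, Tet1 and Tet2 limit the precision of their values, and the number of reads of each enzyme set aside as ambiguous was not tested.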
